A study of Schizosaccharomyces pombe 972h- with 4 samples.

Results

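The change in transcript levels of wild-type (wt) fission yeast after 90 min of hypoxia is described here from 2 of the 4 arrays of the series. The members were taken by their labels, the hypoxia array against the normal oxygen array of wt, and the other 2 arrays hold cells deleted for the dioxygenase gene ofd2 (Ofd2Δ) under the same conditions. The wt cells were of the 972 h- background and carried no deletion. They were grown at 30 °C to exponential phase in YES, a rich yeast extract medium with 2% glucose and supplements. For hypoxia (below 1% oxygen) they were held in a gas-generating AnaeroGen system, and for normal oxygen (20%) in flasks open to room air, so that oxygen and culture vessel cannot be told apart. RNA of 2 experiments was pooled for each condition before labelling and hybridised to 1 array, so no difference between the arrays has a replicate check and no test was made. These are bulk cultures, in which fewer cells expressing a gene and less RNA per cell cannot be told apart.

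Oxygen is a substrate of respiration and of several steps of sterol and heme synthesis. In S. pombe, the membrane-bound transcription factor Sre1, a homologue of the mammalian sterol regulatory element binding proteins, is cleaved when sterol synthesis fails in low oxygen. Its released part activates genes of sterol and heme synthesis and its own gene. Respiration needs NADH dehydrogenases, the cytochrome bc1 complex, cytochrome c and cytochrome c oxidase, and the ATP synthase uses the proton gradient that they build. Fission yeast also ferments glucose, which enters through a family of hexose transporters named Ght.

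The arrays carry 4997 targets, each read by 7 probes of 60 bases that are present once in each of 2 blocks (14 spots, 10 for 1 target). Values given here as levels are probe intensities after background correction and quantile normalisation, summarised per target, and a ratio is the level in hypoxia over that in normal oxygen, averaged over both blocks. The median raw intensity of the gene spots was 7045 in hypoxia and 7529 in normal oxygen, against 126 and 124.6 for 2083 control spots with random sequence. On both arrays, 4972 targets exceeded the 95th percentile of these controls. Systematic names were held for 1646 targets, and 3351 enter the counts without a name. Of the named targets, 44 carry a name only through supplementary tables of genes chosen on these same arrays, which favours changed genes among them. The target of ofd2 is not among those named.

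Most transcripts differed little between hypoxia and normal oxygen. The median ratio was 1.02, 85.3% of the targets lay within 1.2-fold of no change, and the 5th and 95th percentiles of the ratio were 0.779 and 1.23. At the 2-fold threshold, 8 targets were higher in hypoxia (0.160% of those measured) and 32 lower (0.640%). At 1.5-fold these counts were 39 (0.780%) and 114 (2.28%). A gene is called risen or fallen below when it passed the 2-fold threshold. All 14 spots lay on the side of the change for 8 of the 8 risen targets and for 31 of the 32 fallen ones. The log2 ratios of both blocks differed by 0.07 at the median, and the SD of the log2 ratio over the spots of a target was 0.16. These are technical spreads within the arrays. Many of the changes concern dim transcripts, since 5 of the 8 risen and 22 of the 32 fallen targets lay below the 25th percentile of level.

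**Figure D1:**
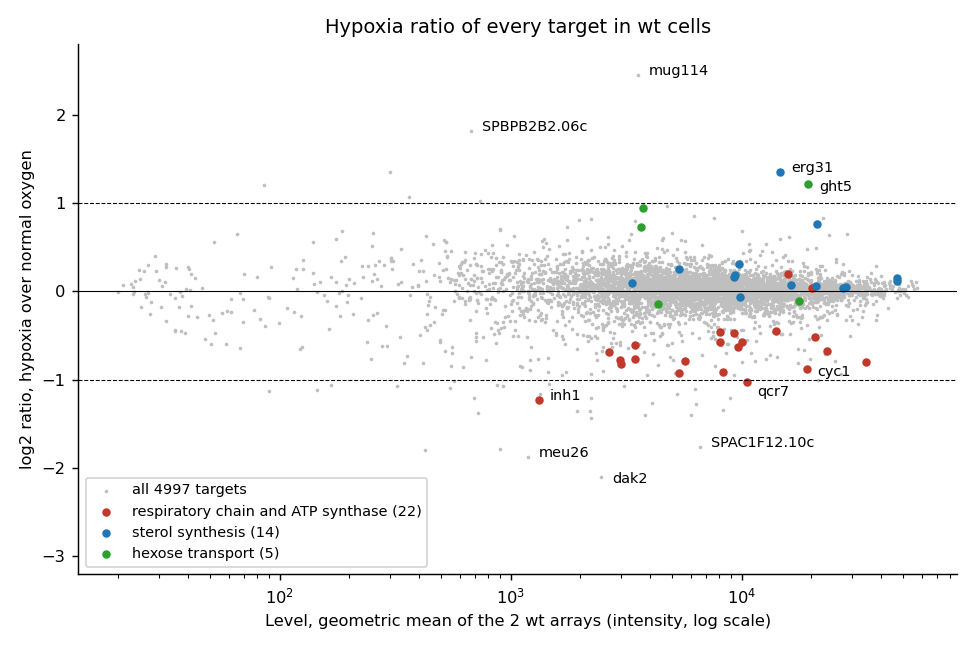
Log2 ratio of hypoxia over normal oxygen of each target in wt cells (y axis) against the geometric mean of its levels on the 2 wt arrays (x axis, intensity, log scale), with 1 point per target and dashed lines at 2-fold. The respiratory chain genes (red) lie mostly below 0 over a wide range of levels, while erg31, ght5 and mug114 lie above the upper line and the spread of all targets widens at low levels.

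Transcripts of the respiratory chain and the ATP synthase were lower in hypoxia as a group. Of 39 genes in this list, 22 carry a name. Their median ratio was 0.623, against 1.02 for all targets, and 14 of the 22 were at least 1.5-fold lower, against 2.28% of all targets. Of these, 2 passed 2-fold (0.640% of all targets), and 0 of the 22 were at least 1.5-fold higher. The 16 members named through the table of the array's own order had a median of 0.647 with 8 at least 1.5-fold lower, and the 6 named only through the tables of chosen genes were all at least 1.5-fold lower.

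The subunits of the cytochrome bc1 complex, which passes electrons from ubiquinol to cytochrome c, were lower throughout. The gene qcr7 had a level of 7344 in hypoxia, against 14962 in normal oxygen, a ratio of 0.491. It was the 1 of the 6 named subunits that fell by 2-fold. Its 14 spot ratios ran from 0.344 to 0.594, so that the spots of the target all lay below 1. For qcr8 the level was 4308 in hypoxia, against 7429.6 in normal oxygen. The gene qcr1, which encodes a core protein, had 18543 in hypoxia and 29739 in normal oxygen, and qcr2, the other core protein gene, 17326 and 24871. The ratios of qcr8, qcr9, qcr10 and qcr1 were 0.580, 0.565, 0.622 and 0.624, and that of qcr2 was 0.697, the highest of the 6. The median over the complex was 0.601.

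The carrier between the complexes, cytochrome c, showed the same direction. Its gene cyc1 had a level of 14100.0 in hypoxia, against 25903 in normal oxygen (ratio 0.544, spots 0.375 to 0.681). The NADH dehydrogenases of S. pombe are single proteins that feed electrons into the chain without pumping protons. The gene nde1, among the brightest targets of the array, had 26212 in hypoxia and 45742 in normal oxygen, and ndi1 had 6024 and 11317, with ratios of 0.573 and 0.532.

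The 4 named subunits of cytochrome c oxidase were lowered less, with a median ratio of 0.672 and 1 of them at least 1.5-fold lower. This was cox9, with a level of 2644 in hypoxia, against 4489.6 in normal oxygen, and a ratio of 0.589. The ratios of cox13, cox5 and cox12 were 0.671, 0.672 and 0.725, and all of their spots lay below 1.

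Of the ATP synthase, 5 subunits and the inhibitor protein carry a name, with a median ratio of 0.613 and 5 of the 6 genes at least 1.5-fold lower. The gene inh1, whose product blocks ATP hydrolysis by the synthase, had 868 in hypoxia and 2030.4 in normal oxygen, a ratio of 0.428, at percentile 9.31 of level. The gene SPCC1840.06c, annotated as the subunit that confers oligomycin sensitivity, had a ratio of 0.529, atp7 of 0.582, atp14 of 0.644 and atp16 of 0.658. The least changed was atp3, a subunit of the catalytic part, at 0.730, with levels of 11995 in hypoxia and 16411 in normal oxygen.

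Succinate dehydrogenase, which belongs to both the chain and the citric acid cycle, stood apart from these. Its subunit gene sdh3 had a level of 16944 in hypoxia, against 14817 in normal oxygen, and SPBP23A10.16 (tim18 in RefSeq) had 20429 and 19958, with ratios of 1.14 and 1.02. They were the only 2 of the 22 list members above 1. The glycerol-3-phosphate dehydrogenase gene gut2, which also delivers electrons to the chain, had a ratio of 0.719.

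**Figure D2:**
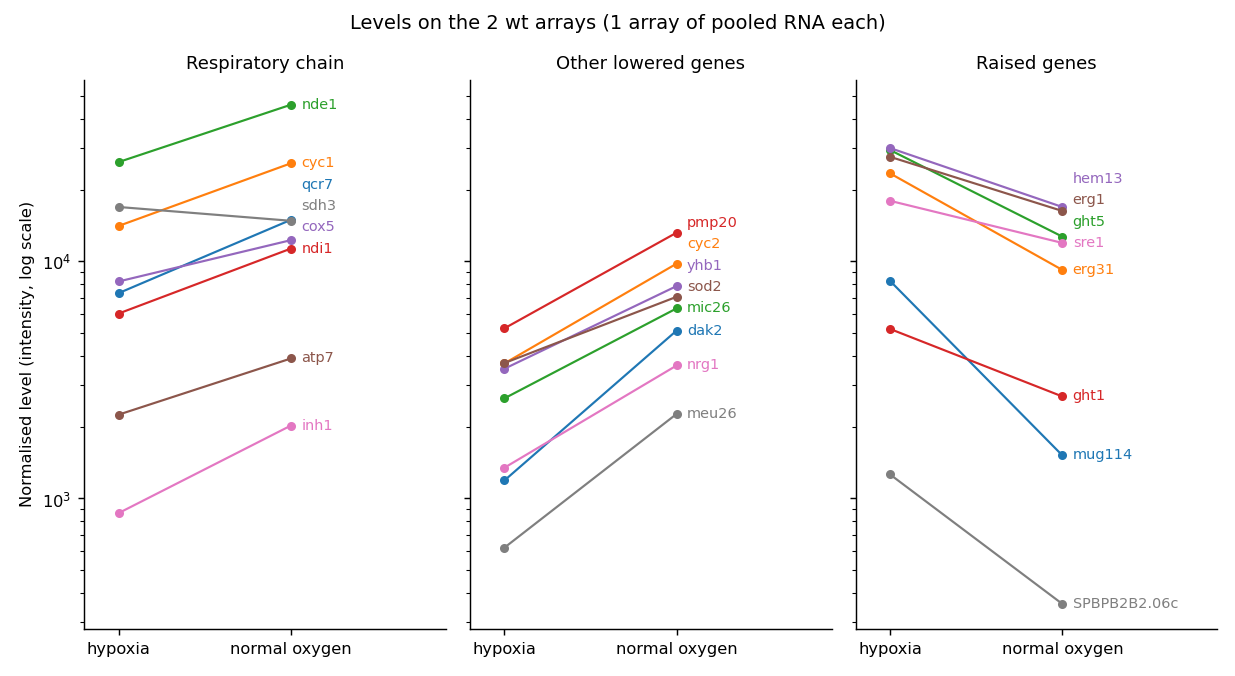
Normalised level (y axis, log scale) of 24 genes on the hypoxia array (left in each panel) and the normal oxygen array (right) of wt cells, with 1 line per gene. In the first panel all genes but sdh3 are lower in hypoxia, in the second all 8 are lower, and in the third all 8 are higher.

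Among genes of the assembly and inner membrane of mitochondria, a few had lower transcript levels and most others lay near 1. Of 51 genes in this list, 19 carry a name, with a median ratio of 0.980. They include 4 at least 1.5-fold lower, against 2.28% of all targets, and 0 at least 1.5-fold higher, against 0.780%. The 17 members named through the table of the array's own order had a median of 1.00, with 2 at least 1.5-fold lower. The 2 named only through the tables of chosen genes, cyc2 and mic19, were both at least 1.5-fold lower. The largest decrease was that of cyc2, whose product takes part in the attachment of heme to cytochrome c, with a level of 3710.2 in hypoxia, against 9778 in normal oxygen, and a ratio of 0.380. The genes mic26 and mic19 encode parts of the MICOS complex, which shapes the cristae of the inner membrane. Their levels were 2643 and 2135 in hypoxia, against 6333 and 4503 in normal oxygen, with ratios of 0.416 and 0.475. The fourth is qcr1, which is also counted in the respiratory chain. The bc1 assembly factor gene cbp3 had a ratio of 0.828. Other assembly factors lay near 1, with 1.000 for sco1, 1.01 for shy1 and 0.962 for coa4 of cytochrome c oxidase, and so did the translocase genes tom40 (0.980) and tim23 (0.951). The highest ratio in the list was 1.18, for cbp6, a factor of cytochrome b translation in budding yeast.

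Of the citric acid cycle, 8 of 17 genes carry a name, with a median ratio of 0.947. The fumarase gene fum1 was the 1 at least 1.5-fold lower (2.28% of all targets). It had 10310.2 in hypoxia, against 17046 in normal oxygen (ratio 0.605). The succinyl-CoA ligase genes lsc2 and lsc1 had ratios of 0.885 and 0.947. The values were 0.946 for kgd1 of the 2-oxoglutarate dehydrogenase complex, 0.947 for mdh1, the malate dehydrogenase, 1.00 for the malic enzyme gene mae2, 1.03 for lat1 of the pyruvate dehydrogenase complex and 1.07 for idh2, a subunit of isocitrate dehydrogenase. Mitochondrial translation showed no such decrease at the median. The 17 targets with a function text of this kind had a median of 1.01, and their lowest ratio was 0.714, for the elongation factor gene mef1.

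Several enzymes that handle reactive oxygen or nitric oxide had lower transcripts in hypoxia. Of 26 antioxidant genes in the list, 11 carry a name, with a median ratio of 0.913, and 4 were at least 1.5-fold lower (2.28% of all targets), 3 of these by 2-fold (0.640%). The peroxiredoxin gene pmp20 had a level of 5215 in hypoxia, against 13212 in normal oxygen (ratio 0.395, spots 0.324 to 0.545). The flavohemoglobin gene yhb1, whose product converts nitric oxide to nitrate with oxygen, had 3523 in hypoxia, against 7864 in normal oxygen (ratio 0.448). The mitochondrial superoxide dismutase gene sod2 had 3723 in hypoxia and 7086 in normal oxygen (ratio 0.526). The sulfiredoxin gene srx1, which reactivates peroxiredoxins, had a ratio of 0.495 at a low level, percentile 3.92. The other 7 members ran from 0.906 for txl1, a thioredoxin-like protein, to 1.13 for gcs2, the glutamate-cysteine ligase. Among these, the cytosolic peroxiredoxin gene tpx1 had 33849.9 in hypoxia, against 30072 in normal oxygen, a ratio of 1.13. The decrease was found in 4 of the 11 genes and not along the whole list. Of the 4, yhb1 and sod2 are named only through the tables of chosen genes. Among the 9 members named through the table of the array's own order, 2 were at least 1.5-fold lower.

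Of the genes of iron and copper, 12 of 30 are among the named targets, with 0.944 as their median ratio. The siderophore transporter gene str1 had 19302 in hypoxia, against 33268 in normal oxygen (ratio 0.580), and the copper transporter gene ctr4 had 17910.0 in hypoxia, against 29243 in normal oxygen (ratio 0.612). Both are bright, at percentiles 94.4 and 92.4 of level, and both were at least 1.5-fold lower (2.28% of all targets). The gene php4, whose product represses iron-using genes when iron is scarce, had a ratio of 0.683, and the copper chaperone gene atx1 0.754. The ratio was 0.991 for str2, a paralogue of str1. The ferric reductase genes frp1 and frp2 had ratios of 1.00 and 1.08, and php2, which encodes a subunit of the CCAAT-binding complex, had the highest of the list, 1.35. The carbonic anhydrase gene nce103, which lies in no list, had 15057 in hypoxia, against 30092 in normal oxygen, and with a ratio of 0.500 it missed the 2-fold threshold narrowly.

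The largest decrease of all targets was that of dak2, the dihydroxyacetone kinase gene of glycerol breakdown, with a level of 1191 in hypoxia, against 5106 in normal oxygen. Its ratio was 0.232 and its spots ran from 0.180 to 0.304. Of the 12 genes listed under glycerol metabolism, 5 carry a name, and dak2 was the 1 at least 1.5-fold lower (2.28% of all targets). The name of dak2 comes only from the tables of chosen genes. The ratios of gut2, fmd2, gpd1 and fmd3 were 0.719, 0.869, 1.16 and 1.19, with gpd1 encoding the glycerol-3-phosphate dehydrogenase that makes glycerol under osmotic stress. The genes fmd2 and fmd3 were placed in this list by name, and a role of theirs in glycerol metabolism was not checked. In the authors' table of normalised values gpd1 stood at 2.03. The next larger decreases among named genes were those of meu26 (0.273), a gene named for its upregulation in meiosis, of rec15 (0.291), a protein of meiotic recombination, and of SPAC1F12.10c (0.295). The levels of meu26 and rec15 were 620.1 and 482 in hypoxia, against 2273 and 1677 in normal oxygen. Both are dim, below the 10th percentile of level. The target of SPAC1F12.10c, near the middle of the levels (percentile 51.4), had 3568 in hypoxia and 12112 in normal oxygen.

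Transport across the plasma membrane was represented among the fallen genes by SPBPB2B2.01 (nrg1 in RefSeq), an amino acid permease, with a ratio of 0.370, by tna1, a vitamin transporter of the nicotinic acid family, with 0.392, and by SPBC530.02, annotated as a transporter of unknown specificity, with 0.390. All 3 lay below the 25th percentile of level. Of the 48 targets whose function text names a transporter of the major facilitator, ABC or permease classes, 5 were at least 1.5-fold lower (2.28% of all targets) and 0 at least 1.5-fold higher (0.780%), with a median of 0.955. They include mmt1 (0.535) and ctr4, given above. Of the 8 named amino acid permeases, nrg1, named only through the tables of chosen genes, was the 1 at least 1.5-fold lower. The others ran from 0.840 for SPCC794.03 to 1.38 for isp4, an oligopeptide transporter. The remaining named genes among the 15 largest decreases were SPCC191.04c (0.384) and SPBC11C11.06c (0.412). Next to them stood mug37 (0.432), the alanine racemase gene alr2 (0.433), and SPAC977.17 (0.433), annotated in fission yeast as a water channel of the MIP family. SPAC16A10.01 (0.464), SPBC27.05 (0.478) and opa3 (0.485) complete the 24 named genes that fell, together with the genes given in other groups.

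Of the genes of sterol synthesis, 14 of 29 carry a name, and 2 of them were at least 1.5-fold higher (0.780% of all targets) while 0 were at least 1.5-fold lower (2.28%). Their median ratio was 1.09, against 1.02 for all targets. The 9 members named through the table of the array's own order had a median of 1.07, with 1 at least 1.5-fold higher. The other 5 are named only through the tables of chosen genes. The C-5 sterol desaturase gene erg31 rose, with a level of 23479 in hypoxia, against 9193 in normal oxygen (ratio 2.55, spots 1.81 to 4.94). The squalene epoxidase gene erg1 had 27573 in hypoxia, against 16296 in normal oxygen (ratio 1.69). Both enzymes use oxygen. The next in order was erg27, a 3-keto sterol reductase, at 1.23, and then dap1, whose product binds heme and assists sterol P450 enzymes, at 1.196. The oxygen-using cytochrome P450 enzymes gave 1.11 for erg11 and 1.03 for erg5, and the C-4 methyl oxidase gene erg25 gave 1.08. These last 3 are among the brightest targets, at percentiles 99.5, 95.6 and 99.6 of level. In hypoxia 1 of the 14 spots of erg11 and 3 of those of erg25 were saturated. The earlier steps had ratios of 1.04 for hmg1, the HMG-CoA reductase, 0.956 for idi1, the isopentenyl diphosphate isomerase, and 1.05 for erg9, the squalene synthase. The values were 1.04 for the C-24 methyltransferase gene erg6, 1.07 for the prenyl synthase gene spo9, 1.13 for erg28 and 1.12 for the sterol acyltransferase gene are2.

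The gene of the transcription factor itself, sre1, had a level of 17987 in hypoxia, against 11952 in normal oxygen, a ratio of 1.51. Its spots ran from 1.29 to 2.04, all above 1. It was the 1 of 8 named Sre1 pathway genes at least 1.5-fold higher (0.780% of all targets), and the median of the 8 was 1.01. The rhomboid protease gene rbd2 had a ratio of 1.23. The genes dsc1 and dsc5, of a ligase complex required for Sre1 cleavage, had 0.969 and 0.982, and nro1, whose product binds the Sre1 regulator Ofd1, had 1.06. The related factor gene sre2 had 0.916, ins1, a partner of HMG-CoA reductase, 0.931, and hmg1 is counted here as well.

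For heme synthesis, 3 of the 8 genes listed could be named. The coproporphyrinogen oxidase gene hem13, whose product uses oxygen, had a level of 30027 in hypoxia, against 16940.3 in normal oxygen (ratio 1.77). It is named only through the tables of chosen genes. The uroporphyrinogen decarboxylase gene hem12 had a ratio of 1.12 and the ferrochelatase gene hem15 of 1.08. Of 6 named genes of iron-sulfur and heme proteins outside the chain, yhb1 was the 1 at least 1.5-fold lower (2.28% of all targets). The others not yet given, bio2 of biotin synthesis and the cytochrome b5 reductase gene cbr1, had 0.953 and 1.11. Of the 9 named targets of sphingolipid, fatty acid and phospholipid synthesis, 0 passed 1.5-fold from the probe files, while sur2 and lcf2 stood at 2.15 and 2.43 in the authors' table of normalised values. They ran from 0.944 for cho1, the phosphatidylserine synthase, to 1.22 for sur2, the sphinganine hydroxylase, which uses oxygen. The desaturase gene ole1, also an oxygen-using enzyme, had 56242 in hypoxia and 55274 in normal oxygen, a ratio of 1.02. These levels are near the top of the range of all targets (57566), where a rise may not show. The fatty acyl-CoA ligase genes lcf1 and lcf2 had 0.985 and 1.16, and the 2 targets of the diacylglycerol acyltransferase gene dga1 0.944 and 0.984. The phospholipid genes pcy1 and psd1 had 1.05 and 1.103.

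Part of the hexose transporters had higher transcript levels in hypoxia. Of 9 genes, 5 carry a name, and 3 were at least 1.5-fold higher, against 0.780% of all targets. The high-affinity glucose transporter gene ght5 rose to 29452 in hypoxia, against 12703 in normal oxygen (ratio 2.32, spots 2.02 to 3.21). The gene ght1 had 5184 in hypoxia, against 2692 in normal oxygen (ratio 1.92), and ght4 had 4729.5 in hypoxia, against 2851 in normal oxygen (ratio 1.66). The ratios of ght6 and ght8 were 0.907 and 0.926, within 1.2-fold of no change. The members of this family are similar in sequence, and how far their probes share signal was not tested.

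Of the genes of glycolysis, fermentation and the pentose phosphate pathway, 8 of 28 carry a name, with a median ratio of 1.08. The alcohol dehydrogenase gene adh8 was the 1 at least 1.5-fold higher (0.780% of all targets). It had 2946 in hypoxia, against 1670.3 in normal oxygen (ratio 1.77), at a level below the 25th percentile. The main fermentative gene adh1, at the top of the intensity range, had 1.08. The glyceraldehyde-3-phosphate dehydrogenase gene gpd3 had 1.28. The values were 1.07 for the triose phosphate isomerase gene tpi1, 1.03 for the aldolase gene fba1, and 1.14 and 1.08 for gnd1 and tal1 of the pentose phosphate pathway. The gluconeogenic gene fbp1 had 0.907.

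The largest increase of all targets was that of mug114, a gene named for its upregulation in meiosis, with a level of 8264 in hypoxia, against 1519 in normal oxygen. Its ratio was 5.44, and its spots ran from 4.09 to 9.94. SPBPB2B2.06c followed with 1262 in hypoxia, against 359.1 in normal oxygen (ratio 3.52), at percentile 4.66 of level. The kinase gene ppk33 (2.03) and SPCC4F11.05 (2.09) also rose, at similarly low levels. The gene imt2, annotated as similar to a budding yeast protein of sphingolipid mannosylation, had 6629 in hypoxia, against 3403 in normal oxygen, a ratio of 1.96. The wtf family gene wtf11 had 1.76. Of the other named genes at least 1.5-fold higher, the bright osm1, a homologue of budding yeast fumarate reductase, had 29598 in hypoxia, against 19048 in normal oxygen (ratio 1.55). The values were 1.58 for aim18, 1.74 for SPBC215.11c, 1.54 for fsh2, and 1.64 and 1.502 for the short-chain dehydrogenase genes SPCC1739.08c and SPCC24B10.20. In all, 20 named targets were at least 1.5-fold higher and 59 at least 1.5-fold lower, of which 8 and 28 belong to no list.

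The lists of general cell functions lay close to the median of all targets. For 39 targets annotated as cytosolic ribosomal proteins the median ratio was 1.02, and 0 passed 1.5-fold in either direction. Their extremes were 0.849 for mrpl12, which the function text places here although RefSeq names it as mitochondrial, and 1.18 for SPCC777.17c. The medians were 1.06 for 10 proteasome targets, 1.04 for 11 splicing factors, 1.08 for 17 targets of the ubiquitin pathway, 1.02 for 20 of DNA repair and helicases, 1.09 for 7 of actin, tubulin and septins and 1.01 for 7 annotated as tRNA synthetases, with 0 past 1.5-fold in each. Among 54 protein kinases, ppk33 was the 1 at least 1.5-fold higher (0.780% of all targets) and oca2 (0.618) the 1 at least 1.5-fold lower (2.28%). Among 36 transcription factors and regulators 0 passed 1.5-fold, and cha4 had the highest ratio, 1.28. Of 17 named stress response genes, SPCC1739.08c was the 1 past 1.5-fold, on the higher side (0.780% of all targets), and the median was 1.02. The stress kinase gene srk1 had 0.787 and the transcription factor gene atf1 0.878. Of 9 heat shock and chaperone targets 0 passed it, with 1.39 for mug184 at the upper end.

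The 7 named S-phase genes of the MBF factor, which activates transcription at the start of DNA replication, all lay below 1, as did 42.8% of all targets. Their ratios ran from 0.734 for the replication licensing gene cdt1 and 0.760 for the Wee1-like kinase gene mik1, through ssb1 (0.845), rep2 (0.884), res1 (0.955) and yox1 (0.963), to 0.974 for dfp1, with 0 past 1.5-fold. The histone genes htb1 and hta1 had 0.873 and 0.970. Of the 2-oxoglutarate dioxygenases, the family of Ofd2, the JmjC genes jmj3, jmj4 and epe1 carry a name, with 0.897, 1.099 and 1.13. The named genes of phosphate and thiamine starvation ran from 0.821 for pho843 to 1.16 for nmt1, and those of the cell wall from 0.905 for ags1 to 1.33 for pfl3. In the list of mating, meiosis and nitrogen starvation, 5 of the 7 named genes lay between 0.838 for mei3 and 1.17 for jnm1, and the other 2, meu26 and mug114, are the second largest decrease and the largest increase on the array.

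**Figure D3:**
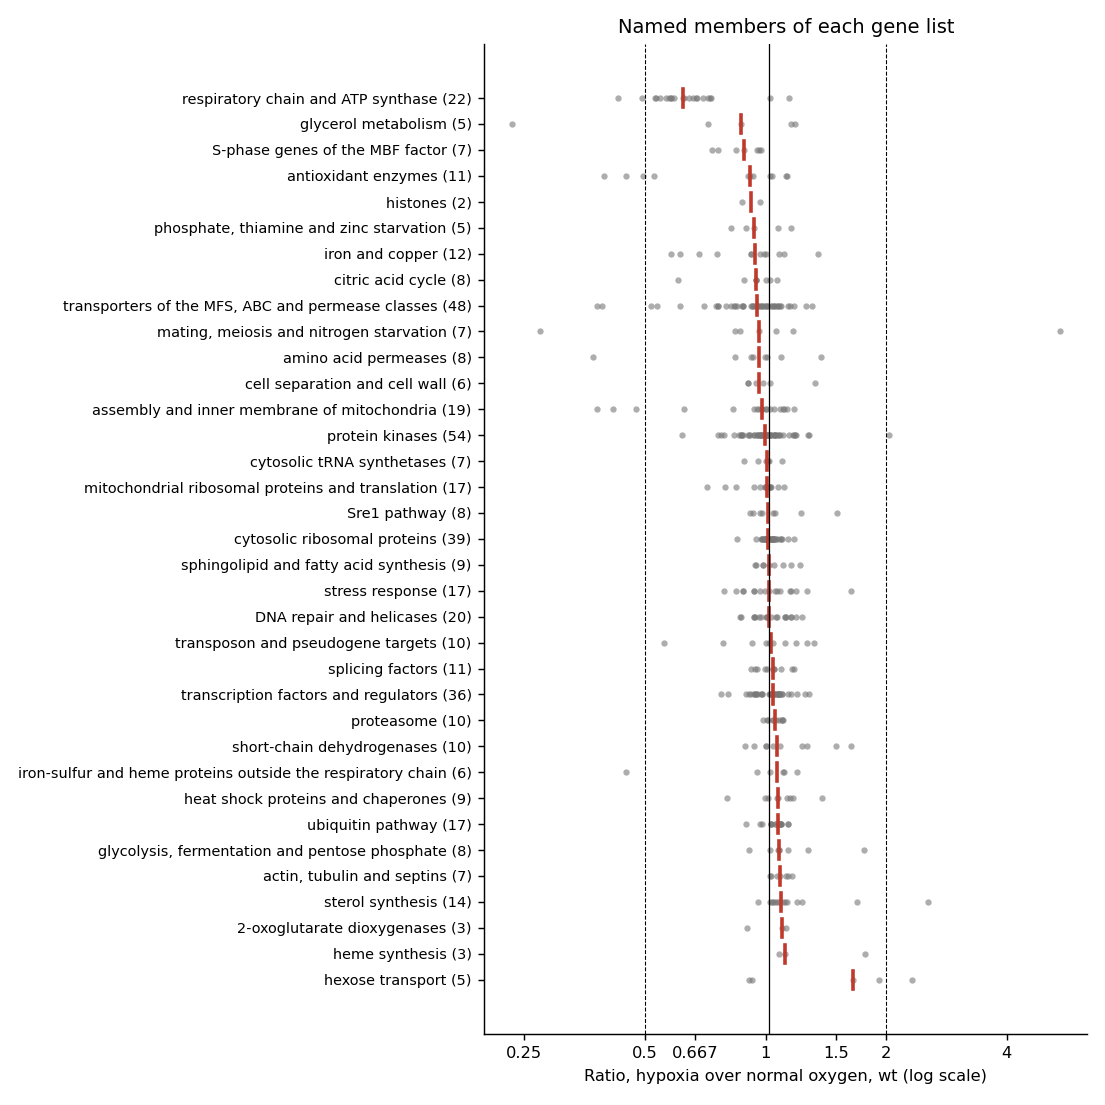
Ratio of hypoxia over normal oxygen in wt cells (x axis, log scale) of the named members of each list (grey points, number in parentheses), with the list median in red, the median of all targets as a solid line and dashed lines at 2-fold. The respiratory chain list is shifted to the left with 20 of 22 members below 1, hexose transport to the right, and most lists centre on the median of all targets.

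All spots of the 10 genes plotted by probe lay on the side of the gene's change, and the size of the ratio varied along some targets. For all probes, the departure from the mean of the target was hardly shared by the copy in the other block (Pearson correlation 0.02). The examples below are thus not typical of the array. For dak2 the 7 probe ratios of the first block ran from 0.209 to 0.304 along the target, and for pmp20 from 0.344 to 0.512. For mug114 and erg31 the probe nearest the start of the target gave the highest ratio in both blocks, 9.94 and 9.87 for mug114 and 4.94 and 4.52 for erg31, while the other probes of erg31 lay between 1.81 and 3.25. The first probe of hem13 gave 4.02 and 2.66, against 1.46 to 2.12 for its other probes. For ght5 the 7 probes start between bases 1524 and 1572 of the target, so they overlap and are not separate readings of the transcript. Some probes of pmp20, cyc1 and mug114 overlap as well. Such overlap of at least 1 pair of probes was found in 60.9% of the targets. Among 434 named list members, 6 had a spot SD above 0.5 on the log2 scale, as did 1.54% of all targets. In 5 of these 6 members a single spot stood apart while its copy in the other block did not. In fum1, for example, 1 spot had a ratio of 4.02 and its copy 0.668. The exception was tim18, whose first probe had 5.72 and 4.15 in the 2 blocks with the others near 1. This probe was dim, with a mean level of 302 in hypoxia and 61.8 in normal oxygen. Over the array, 2 probes lay 2-fold or more above the other probes of their target in both copies, and 10 lay as far below.

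**Figure D4:**
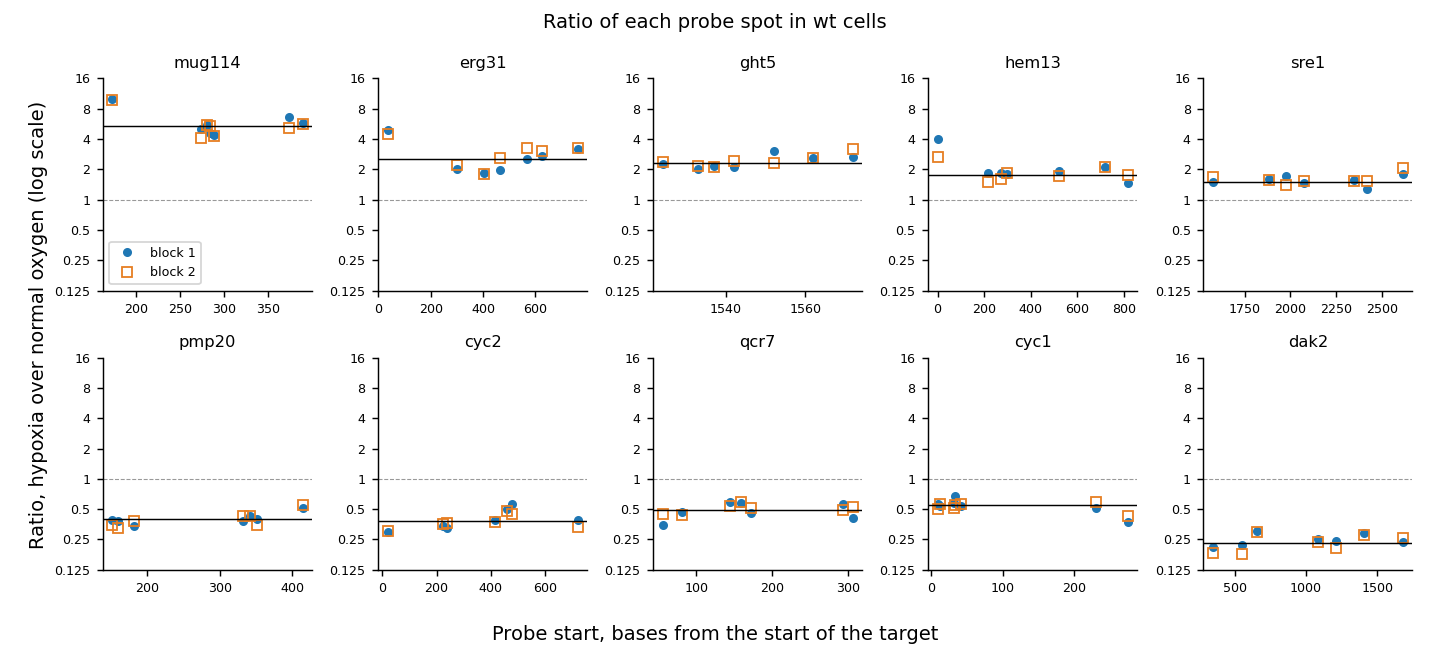
Ratio of hypoxia over normal oxygen in wt cells (y axis, log scale) of each probe of 10 genes by its start on the target (x axis, bases), with filled circles for block 1, open squares for block 2 and a line at the gene's ratio. The probes of each gene lie on 1 side of the dashed line at 1, and the first probe of mug114, erg31 and hem13 lies above the rest.

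Dim targets spread more widely than bright ones. In the lowest 10% of levels the SD of the log2 ratio over targets was 0.40, and of its 499 targets 14 were at least 1.5-fold higher and 39 at least 1.5-fold lower, while in the highest 10%, 500 targets, the SD was 0.16, with 4 higher and 6 lower. The median ratio was 1.03 in the lowest and 1.01 in the highest 10%. The position of a probe on its target made little difference, with a median log2 ratio between 0.01 and 0.03 for each of the 7 probe ranks. Over 16 fields of the array surface the median log2 ratio ran from -0.04 to 0.08.

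Neighbouring genes were compared through the gene order of the RefSeq table. Among 1470 adjacent pairs in which both genes carry a name, 2 pairs had both members at least 1.5-fold lower and 1 pair had both at least 1.5-fold higher. The lowered pairs are dak2 with SPAC977.17 (ratios 0.232 and 0.433) and rec15 with SPBC1711.15c (0.291 and 0.448), and in both the annotated genes overlap, as they do in 331 of the 1470 pairs. How far overlapping transcripts share probe signal was not tested. The raised pair, imt2 with SPCC4F11.05 (1.96 and 2.09), does not overlap. These pairs were singled out after their values were seen. Of the 36 named genes at least 1.5-fold lower that have a named neighbour, 4 lie in such a pair.

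The wt changes were set beside those of Ofd2Δ cells, measured on the other 2 arrays of the series. The Ofd2Δ hypoxia array was dimmer than the others, with a median gene spot of 4009 and 0 saturated spots, and its part in differences between the strains was not tested. Over all targets the log2 ratios of the strains had a Pearson correlation of 0.65, a description across genes on arrays normalised together. Of the 39 targets at least 1.5-fold higher in wt, 24 also passed 1.5-fold in Ofd2Δ cells, which is 24 of 161 there (3.22% of all targets). Of the 114 at least 1.5-fold lower in wt, 81 did, out of 139 in Ofd2Δ cells (2.78%). At 2-fold, 4 of the 8 risen targets also passed in Ofd2Δ cells, out of 21 there (0.420%), and 22 of the 32 fallen ones, out of 50 (1.00%). Of the 22 respiratory chain genes, 14 were at least 1.5-fold lower in wt (median ratio 0.623), and 14 in Ofd2Δ cells (median ratio 0.617). In 12 of the 22 genes the Ofd2Δ ratio was the lower one, and the share of all targets for which this holds is not given here. For cyc1 the ratios were 0.544 in wt and 0.465 in Ofd2Δ cells, for qcr7 0.491 and 0.387, and for nde1 0.573 and 0.591. All of these come from the probe files. With the authors' values, the paper reports nde1, cyc1, atp16, qcr2, qcr8 and qcr10 as more repressed in Ofd2Δ cells. Its limit was 1.5-fold between the strains. Its RT-qPCR of nde1, cyc1 and qcr8 went the same way, also in other strain backgrounds and at earlier times of hypoxia. Ofd2 put back into Ofd2Δ cells reversed this, and a form mutated in its iron-binding site did not. By ChIP the paper found Ofd2 near the start of the same genes in hypoxia only. From the probe files, the Ofd2Δ ratio over the wt ratio ran from 0.787 to 1.15 in the 22 genes. None passed that limit. The ratio of qcr10 was lower in Ofd2Δ cells (0.622 in wt, 0.521 in Ofd2Δ). By contrast, qcr8 (0.580, 0.588) and atp16 (0.658, 0.657) differed little there. The Ofd2Δ ratio of qcr2 is not given here. Why the sources differ was not tested.

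Other genes differed more between the strains. The ratio of ght1 was 1.92 in wt and 3.96 in Ofd2Δ cells, that of ght4 1.66 and 2.82, and that of ght5 2.32 and 2.41. The stress response gene SPCC1739.08c had 1.64 in wt and 4.53 in Ofd2Δ cells, at a low level. The alcohol dehydrogenase gene adh8 had 1.77 in wt and 1.08 in Ofd2Δ cells, and ctr4 0.612 and 0.888, so that these 2 passed 1.5-fold in wt alone. The iron transporter gene str1 had 0.580 in wt and 0.279 in Ofd2Δ cells. None of these differences was tested, since each rests on 4 single arrays.

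The authors' table of normalised gene values gave nearly the same ratios for most targets, with exceptions among named genes. Its wt ratio lay within 1.2-fold of that from the probe files for 4959 of the 4997 targets (99.2%). Of the 38 others, 29 were at or above the 25th percentile of level, and for 26 of these 29 the table's ratio lay outside the range of all 14 spot ratios. In 27 of the 29 the table's ratio was further from 1. Of the 29, 25 carry a name, and 23 belong to the 69 targets that the study's supplementary tables list as changed, a choice made on these arrays. For hem15 the table gave 2.64, against 1.08 from the probe files with spots from 0.957 to 1.35. For cyc1 it gave 0.244, against 0.544, with a lowest spot of 0.375. For nde1 the values were 0.326 and 0.573, for sre1 2.53 and 1.51, for hem13 2.62 and 1.77, for atp14 0.432 and 0.644, and for atp16 0.470 and 0.658. For sur2, lcf2 and gpd1 the table gave 2.15, 2.43 and 2.03, against 1.22, 1.16 and 1.16. The sterol genes erg11, erg25 and erg5 stood at 2.17, 2.014 and 2.03 in the table, against 1.11, 1.08 and 1.03 from the probe files. For ght5, erg31 and qcr7, in contrast, the table gave 2.52, 2.79 and 0.484, within 1.2-fold of the values above. The cause of these departures was not tested. They bear on the values above for sterol and heme synthesis, sre1, sphingolipid synthesis, gpd1 and 4 respiratory chain genes (cyc1, nde1, atp14 and atp16), and the ratios given for these genes are closer to 1 in the probe files than in the table. The same holds for osm1, aim18, SPBC215.11c and mae2, at 2.18, 2.16, 2.13 and 1.28 in the table, against 1.55, 1.58, 1.74 and 1.00. For SPAC1F12.10c the table's 0.426 is closer to 1 than the 0.295 from the probe files. For 1 unnamed target the direction differed, at 0.582 in the probe files and 1.74 in the table.

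**Figure D5:**
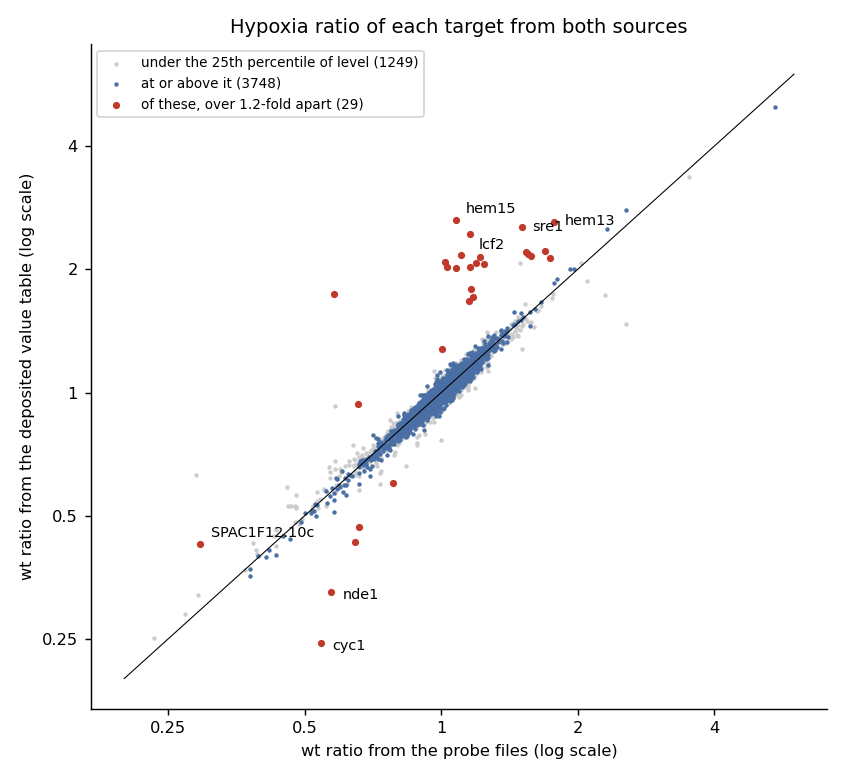
Ratio of hypoxia over normal oxygen in wt cells from the authors' table of normalised values (y axis, log scale) against that from the probe files (x axis, log scale), with 1 point per target and a line of equality. Nearly all targets lie along the line, and the 29 red points, all at or above the 25th percentile of level, are those more than 1.2-fold apart.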

How the data were processed

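RNA of wt cells in hypoxia and normal oxygen, and of Ofd2Δ cells in both, was pooled from 2 experiments per condition, labelled and hybridised to 1 NimbleGen array each. The authors deposited every spot's raw intensity (NimbleScan 2.4.31 per the labels) and a table of normalised intensity values on a linear scale, for which the labels name RMA and no further settings are given in the sources used here. From the spot intensities, the RMA background was estimated on all spots, control spots were left out, the 4 arrays were quantile normalised, and log2 values of each target were combined per block by median polish (Python 3.11.15, numpy 2.4.6, scipy 1.17.1). The ratio is the mean of both blocks' linear ratios. A spot at 65000 or more was taken as saturated. The steps were checked on simulated data.

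Targets were named through the study's supplementary target lists and the RefSeq table of assembly ASM294v3, which matched 1617 of 1646 names, 1374 with a symbol. Lists were filled by symbol or systematic name, or by words of the function text. Members and lists were chosen with earlier results of these data known. The rule named the 15 largest increases and decreases with at least 12 of 14 spots on their side, every list member past 1.5-fold, the extremes and the middle of each list, all members of lists with 8 or fewer, and genes of the study's text. Other named list members and genes were chosen after their values were seen. Alternatives were no background correction, median scaling, the 2 wt arrays processed alone, the median of spot ratios, each block alone, the deposited values, and only those targets at or above the 25th percentile of level.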

Additional observations from a re-analysis of the deposited data

Results flagged for a closer look

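The response had opposite directions in the strains for 2 named genes past 1.5-fold in wt, singled out after their values were seen. The ratio of SPAC56F8.15 was 0.660 in wt and 1.46 in Ofd2Δ cells, at percentile 11.9 of level. The ratio of fsh2 was 1.54 in wt and 0.843 in Ofd2Δ cells, and the deposited table gave 2.20 for fsh2 in wt. Each value rests on 1 array per condition and the difference was not tested.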

How the results depend on the processing

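With no background correction 4 targets rose by 2-fold in place of 8, with median scaling 5, and with the deposited values 25, of which 5 are the same targets. Without the dim targets, those below the 25th percentile of level, there were 3 risen and 10 fallen targets, and 19 and 50 past 1.5-fold in place of 39 and 114, by construction. With the deposited values the median ratio of heme synthesis was 2.62 in place of 1.12 that of iron-sulfur and heme proteins outside the chain 1.57 in place of 1.07, and that of sterol synthesis 1.19 in place of 1.09. Without dim targets the respiratory chain median was 0.651 in place of 0.623. Where not given by construction, the cause was not tested. Over all alternatives but that without dim targets, 22 to 38 targets fell by 2-fold. In the same settings, 27 to 49 were at least 1.5-fold higher and 90 to 156 at least 1.5-fold lower. Of 154 named genes, 27 moved by more than their spot SD with the deposited values, 12 of them by over 1.5-fold, 5 without background correction and 1 with the wt arrays alone. None of these named genes past 1.5-fold changed direction, while 1 unnamed target was 0.582 from the probe files and 1.74 with the deposited values. Of the 35 lists, only respiratory chain and hexose transport had a median past 1.5-fold, and neither changed direction. Some lists with a median near 1 crossed it with the deposited values, such as stress response, at 1.02 from the probe files and 0.991. Without dim targets the mating list kept 2 genes, with a median of 3.25. The median over all targets stayed between 1.01 and 1.02. No paired analysis was possible because each condition has 1 array. Dim targets and saturated spots limit both ends of the intensity scale, and 25 targets did not lie above the control spots on both wt arrays.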

Other observations

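Unnamed targets made up 19 of the 39 targets at least 1.5-fold higher and 55 of the 114 at least 1.5-fold lower. Of 10 targets with transposon or pseudogene function texts, SPCC1884.01 (ratio 0.556) was the 1 at least 1.5-fold lower (2.28% of all targets). Their median was 1.03. Of 10 short-chain dehydrogenase targets, SPCC24B10.20 and SPCC1739.08c were the 2 at least 1.5-fold higher (0.780% of all targets), and the median was 1.07. Of the 39 targets at least 1.5-fold higher in wt, 36 lay above 1 in Ofd2Δ cells too, and of the 114 at least 1.5-fold lower, 105 lay below 1. The median Ofd2Δ ratio over all targets was 1.02, so many targets lie on each side of 1 there.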
